A study of Homo sapiens with 4 samples.

Results

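MAEL, HORMAD1 and VCX are genes normally transcribed in germ cells, and each had 1 spot on the oligonucleotide arrays of this study, 3 of 12966 named genes and 3 of 29640 probes that were not controls. They were taken by their symbols in the platform annotation, and they had been picked with their ratios on these arrays in view, so the values below are a description and carry no test. RNA from DLD-1 and from HT-29, established human colorectal cancer cell lines grown in RPMI1640, was compared with RNA of the same line after 5-aza-2'-deoxycytidine, a cytidine analogue that traps DNA methyltransferases on newly copied DNA. Treated cells were plated, grown for 24 h and kept with 1 µM of the drug for 96 h, and each line's untreated cells served for comparison. Each line had 2 arrays that carried treated and untreated RNA together. Array 1 carried treated RNA in Cy5 (the second label channel) and array 2 had the dyes exchanged, so the labels put treated RNA there in Cy3 and in the first channel. Since the labels do not speak of separate cultures, both arrays of a line together count as 1 replicate and the SD given with a line mean covers 2 hybridisations.

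In somatic tissues many germ-cell genes are kept silent by methylation of CpG-rich promoters, and loss of that methylation is a known route to their transcription in tumour cells. MAEL encodes a component of the piRNA pathway, in which small RNAs bound to PIWI proteins silence transposons in the male germ line. HORMAD1 encodes a HORMA domain protein of the meiotic chromosome axis that supports DNA break formation and synapsis and is removed by the ATPase TRIP13. VCX encodes a small charged protein made in testis and belongs to a group of near-identical genes on the X chromosome.

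The promoters show how much CpG sequence each start site offers to methylation. RefSeq promoter windows (GRCh38.p14, 250 bases before to 50 after a gene start, 5′ to 3′ on the gene's strand) were matched for 2 of the 3 genes, MAEL with 2 starts and VCX with 1. CpG dinucleotides are in capitals.

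MAEL upstream start, chr1:166975332-166975631, plus strand: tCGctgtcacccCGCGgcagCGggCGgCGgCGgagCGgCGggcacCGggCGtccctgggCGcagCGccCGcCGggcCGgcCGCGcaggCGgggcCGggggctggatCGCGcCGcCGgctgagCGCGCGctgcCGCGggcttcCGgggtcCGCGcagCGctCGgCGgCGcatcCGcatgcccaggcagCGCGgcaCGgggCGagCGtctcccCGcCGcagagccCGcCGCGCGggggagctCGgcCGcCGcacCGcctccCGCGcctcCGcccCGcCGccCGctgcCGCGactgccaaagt

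MAEL downstream start, chr1:166989030-166989329, plus strand: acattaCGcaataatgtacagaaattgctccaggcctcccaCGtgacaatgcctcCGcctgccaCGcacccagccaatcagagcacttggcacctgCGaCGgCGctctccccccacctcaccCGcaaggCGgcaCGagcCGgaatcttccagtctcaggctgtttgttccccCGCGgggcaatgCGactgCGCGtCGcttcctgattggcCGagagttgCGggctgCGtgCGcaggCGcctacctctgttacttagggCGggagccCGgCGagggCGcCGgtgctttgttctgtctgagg

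VCX start, chrX:7842921-7843220, plus strand: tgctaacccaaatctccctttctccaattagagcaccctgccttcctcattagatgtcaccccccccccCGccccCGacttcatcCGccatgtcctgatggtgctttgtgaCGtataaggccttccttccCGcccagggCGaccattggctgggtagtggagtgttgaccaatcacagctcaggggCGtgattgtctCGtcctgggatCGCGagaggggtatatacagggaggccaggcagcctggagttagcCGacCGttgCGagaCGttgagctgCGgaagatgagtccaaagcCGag

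The upstream MAEL window holds 60 CpG, a number that 0.0911% of 35116 RefSeq windows of this length reach, and its G and C content is 84.7%. The downstream MAEL window holds 27 CpG, which 28.2% of windows reach, and the VCX window holds 16, which 47.5% reach, beside a median of 14 over all windows. The windows of the relatives VCX2, VCX3A and VCX3B hold 3, 1 and 3 CpG. The letters CACGTG, the palindromic E-box bound by MAX-containing dimers, occur once in the downstream MAEL window, from position −211 relative to the start, and not in the other MAEL window or in that of VCX. They occur in 7.26% of all windows. The letters CCAAT, read on both strands, occur 2 times in the downstream MAEL window and 3 times in that of VCX, against 34.6% of windows with any. Each of the 3 printed windows has 1 match to TCCCGC, an E2F-type sequence read on both strands, and 26.9% of all windows have one. These are counts of letters, and which start the cells used was not measured.

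The files do not spell out every name. The spot descriptions of MAEL and HORMAD1 give a cDNA clone and a hypothetical protein, so these names rest on the platform annotation.

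A channel is called above background here where its intensity lies over 2 SD of the local background higher than that background, and 22073 to 25787 probes per array had at least 1 such channel. This threshold is low: of 96 negative control spots per array, 4.17% to 9.38% passed it in a given channel. Spots of AMH, CYP17A1 and INSL3, markers of testis somatic cells, passed it in all 8 channels of these colorectal lines. So did 7 of 10 colorectal epithelial markers such as EPCAM and KRT8, so passing it does not show transcription. The median intensity minus local background was 3328 for AMH, 2338 for CYP17A1 and 5075 for INSL3. It was 129 to 904 for the other testis somatic markers measured. A bright spot alone is not taken as transcription here either, and whether these lines transcribe AMH, CYP17A1 or INSL3 was not tested. Of the other markers measured, 3 of 5 fibroblast, 1 of 4 leukocyte and 3 of 6 testis somatic genes passed in all 8 channels, while LUM and CD79A passed in none. CDH17 and CDX1, both intestinal markers, passed in 1 and 2 of 8 channels. The printed block of a spot accounted for 16.7% to 47.2% of the variance of the log2 ratios on an array.

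Which channel holds the treated RNA is not settled on the dye-exchanged arrays, since no column header gives a dye. On array 1 of both lines channel 2 is treated if the labels' channel numbers match those of the files, which was not tested. On array 2 the labels' order makes channel 1 the treated one, whereas a working reading takes channel 2 as treated on all 4 arrays. Over 18868 probes, channel 2 over channel 1 had r = −0.45 between the DLD-1 arrays and 0.00 between the HT-29 arrays. The labels' order turns the sign of these correlations and the working reading keeps it. Between the lines r was 0.51 for arrays 1 and −0.20 for arrays 2, the same under both readings. All of these correlations are across probes, which are not independent replicates. Signals are therefore given by file channel first, and ratios under both readings.

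The MAEL spot was much brighter in channel 2 than in channel 1 on every array. Its net intensity, which is intensity minus local background, was −88.0 in channel 1 against 2110 in channel 2 on the first DLD-1 array, and 442 against 2367 on the second. The HT-29 arrays gave 168 against 1119 and 73.8 against 1902. Channel 2 exceeded all 96 negative control spots on 4 of 4 arrays. Channel 1 exceeded all of them on DLD-1 array 2 alone. On DLD-1 array 1, 74 of the 96 were as bright as MAEL or brighter, and on the HT-29 arrays 14 and 37. Against its local background, channel 1 was 4.57 SD high on DLD-1 array 2 and 2.11 SD, barely past the threshold, on HT-29 array 1. It was not above background on the remaining arrays. Even channel 2 stood only 3.31 background SD high on HT-29 array 2, where that SD was 575 for this spot, against 19.3 to 93.2 on the other 3 arrays. The plot of net intensity by channel shows the distance between the channels.

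VCX was above background in both channels throughout, and the gap between the channels was wide in DLD-1 and narrow on 1 HT-29 array. Its net intensity in DLD-1 was 707 in channel 1 and 9975 in channel 2 of array 1, and 1159 and 9296 on array 2. In HT-29 it was 794 and 3248 on array 1, and 1589 and 2468 on array 2. Both channels were above the local background on 4 of 4 arrays, by 3.54 to 69.8 background SD. In channel 2 no negative control reached VCX, while in channel 1 it was matched by 1 control (DLD-1 array 1) and by 3 (HT-29 array 2). The files do not hold the probe's sequence, and VCX2, VCX3A and VCX3B have no named probe on this array. RNA of those near-identical relatives may bind the VCX spot, which was not tested.

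The HORMAD1 signal varied widely between arrays, and channel 2 was the brighter one on each. In DLD-1, its net intensity was 1136 in channel 1 and 1705 in channel 2 of array 1, and 106 and 327 on array 2. In HT-29 it was 49.4 and 290 on array 1, and 1408 and 2471 on array 2. Channel 1 missed the background threshold with 1.75 SD on the second DLD-1 array and 0.65 SD on the first HT-29 array, where 24 and 28 negative controls of 96 were as bright. Channel 2 on the same arrays was 3.88 and 14.3 SD high, with 6 and 3 negative controls as bright. On DLD-1 array 1 and HT-29 array 2 both channels were above background, and at most 4 controls were as bright.

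**Figure D1:**
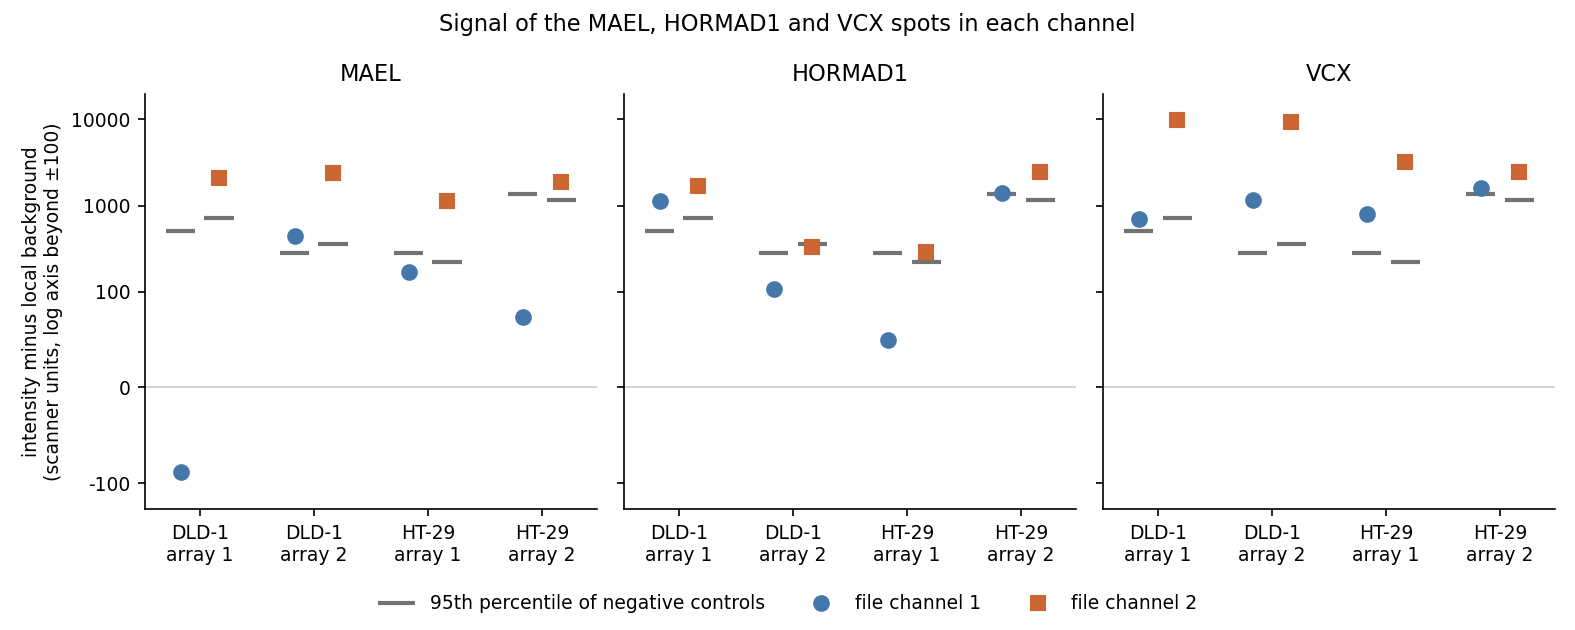
Net intensity (scanner units, logarithmic beyond ±100) of the MAEL, HORMAD1 and VCX spots in file channels 1 (circles) and 2 (squares) on the 4 arrays, with grey bars at the 95th percentile of 96 negative control spots of the same array and channel. MAEL lies above the bar in channel 2 on all 4 arrays and in channel 1 on DLD-1 array 2 alone, while HORMAD1 lies below the bar in both channels of DLD-1 array 2 and in channel 1 of HT-29 array 1, and just above it in channel 1 of HT-29 array 2.

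The log2 ratios of channel 2 over channel 1, after background correction and loess normalisation, were as follows. For MAEL the DLD-1 arrays gave 3.67 and 2.26, and the HT-29 arrays 1.61 and 2.70. VCX reached 3.20 and 2.98 in DLD-1, while HT-29 showed 1.79 and 0.34. For HORMAD1 the ratios were 0.12 and 1.08 (DLD-1) and 0.71 and 0.50 (HT-29). All 12 ratios were positive, so that channel 2 was the brighter one on 4 of 4 arrays for 3 of 3 genes, where 4.32% of 9075 genes measured on all arrays had this pattern and 3.59% the reverse. The genes were picked on these values, so nothing is read from the share. For VCX both DLD-1 ratios lay above both HT-29 ratios, as for 9.90% of the genes, and for MAEL and HORMAD1 the lines overlapped.

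On array 1 of each line both readings take channel 2 as treated. Treated over untreated ratios of MAEL were there 3.67 (DLD-1) and 1.61 (HT-29). Those of VCX were 3.20 and 1.79, and those of HORMAD1 0.12 and 0.71. Everything else depends on the reading of array 2. Under the working reading the line means were 2.96 ± 0.99 (SD, n = 2 arrays) in DLD-1 and 2.15 ± 0.77 in HT-29 for MAEL, 3.09 ± 0.16 and 1.06 ± 1.02 for VCX, and 0.60 ± 0.68 and 0.60 ± 0.15 for HORMAD1. In the labels' order the 2 arrays of a line opposed each other for every gene. The means were then 0.70 ± 4.19 in DLD-1 and −0.54 ± 3.05 in HT-29 for MAEL, 0.11 ± 4.37 and 0.72 ± 1.50 for VCX, and −0.48 ± 0.85 and 0.10 ± 0.85 for HORMAD1. Each of these 6 means is smaller in size than its own SD. Both follow from the positive ratios of channel 2 over channel 1 on every array, so nothing is read from them about either reading. The plot of ratios under both readings sets the values side by side.

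**Figure D2:**
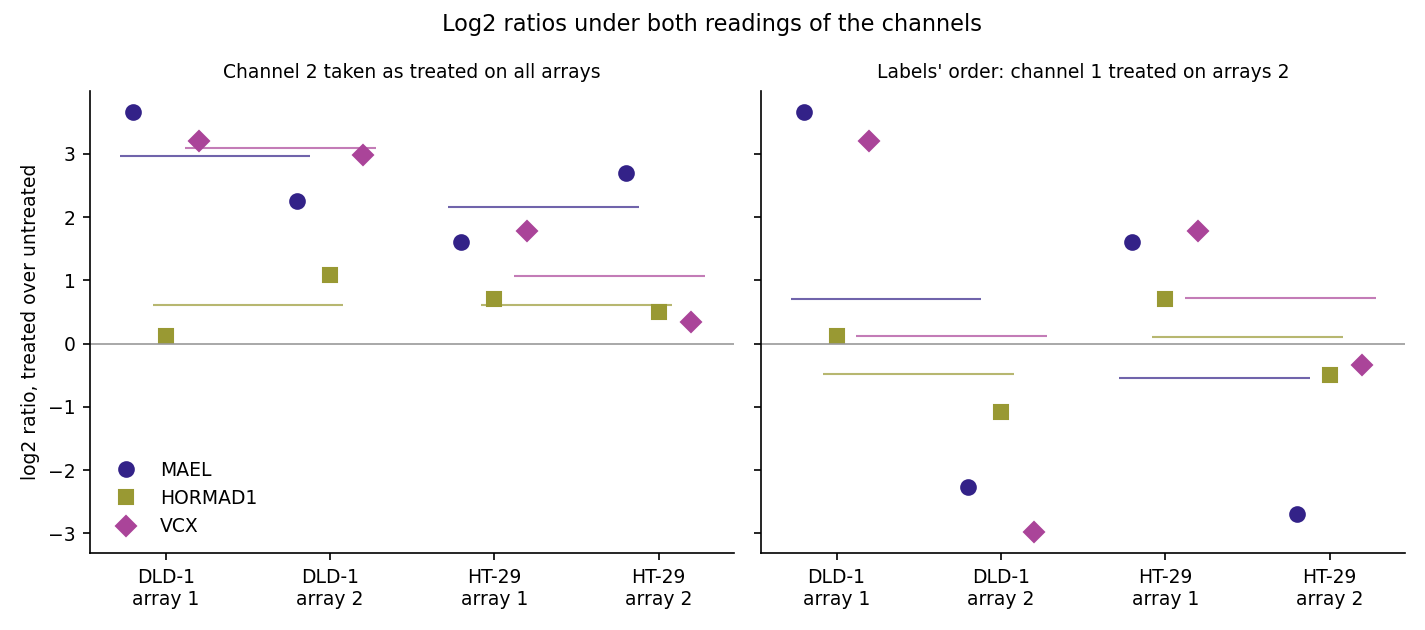
Log2 ratio of treated over untreated RNA for MAEL, HORMAD1 and VCX on the 4 arrays, with channel 2 taken as treated everywhere (left) and in the labels' order (right); thin lines join the arrays of a line at their mean. Array 1 values are the same in both panels, and the array 2 values change sign.

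By a 2-fold threshold on both arrays of a line, MAEL and VCX were at least 2-fold higher on both DLD-1 arrays under the working reading, 2 of 3 genes, where 0.113% of 21197 probes were. MAEL was so on both HT-29 arrays, 1 of 3, where 0.115% of 22642 probes were. In the labels' order 0 of 3 were in either line, beside 0.368% of DLD-1 probes and 0.305% of HT-29 probes. The positive ratios of channel 2 over channel 1 on both arrays of each line fixed that 0 in advance. HORMAD1 reached 2-fold on DLD-1 array 2 alone. Some of these ratios are not exact, because channel 1 was not above background. They are the MAEL ratios of 3.67 (DLD-1 array 1) and 2.70 (HT-29 array 2), and those of HORMAD1 of 1.08 (DLD-1 array 2) and 0.71 (HT-29 array 1). Their size, and that of the line means of MAEL and HORMAD1 that hold them, depends on how the background is corrected. VCX had both channels above background on all 4 arrays.

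Levels placed on 1 scale across the arrays gave an order of the conditions for each gene. On this log2 intensity scale, under the working reading, MAEL stood at 11.30 ± 0.18 (SD, n = 2 arrays) in treated DLD-1, 10.56 ± 0.72 in treated HT-29, 8.40 ± 1.49 in untreated HT-29 and 8.34 ± 1.17 in untreated DLD-1. The untreated levels of the lines differed by less than their SD, and treated and untreated values did not overlap in either line. Untreated MAEL was above background on only 1 of 2 arrays in each line, and so was untreated HORMAD1. Their untreated levels, the likeness of these between the lines and the distance to treated levels are therefore not exact and depend on the background correction. VCX stood at 13.23 ± 0.21 in treated DLD-1, 11.29 ± 1.59 in treated HT-29, 10.23 ± 0.57 in untreated HT-29 and 10.14 ± 0.37 in untreated DLD-1, with the HT-29 conditions overlapping. HORMAD1 stood between 9.26 ± 0.55 in untreated HT-29 and 10.03 ± 1.16 in treated DLD-1, and its conditions overlapped in both lines. Treated levels lay above untreated ones without overlap at 3.82% of DLD-1 probes and 7.48% of HT-29 probes. In the labels' order the conditions of both lines overlapped for all 3 genes, beside 15.1% and 5.89% of probes without overlap. That overlap was fixed in advance, since channel 2 was the brighter one on both arrays of each line, so it is not a result about these genes. These are bulk samples, so more RNA per cell and more cells that make the RNA cannot be told apart.

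The plot of all probes shows where the 3 ratios lie within each array. By channel 2 over channel 1, MAEL ranked 3 of 22073 and 33 of 25787 probes on the DLD-1 arrays, and 180 of 25047 and 2 of 24584 on the HT-29 arrays. VCX ranked 5, 9, 112 and 7469 on the same arrays. HORMAD1 ranked 8588, 453, 2501 and 4928. With channel 1 not above background, the ranks of MAEL on DLD-1 array 1 and HT-29 array 2 and of HORMAD1 on DLD-1 array 2 and HT-29 array 1 are not exact. Where both channels were above background, MAEL ranked 33 and 180 and VCX 5, 9 and 112 outside HT-29 array 2. VCX on HT-29 array 2 thus sat inside the bulk of the probes, with 30.4% of them above it.

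**Figure D3:**
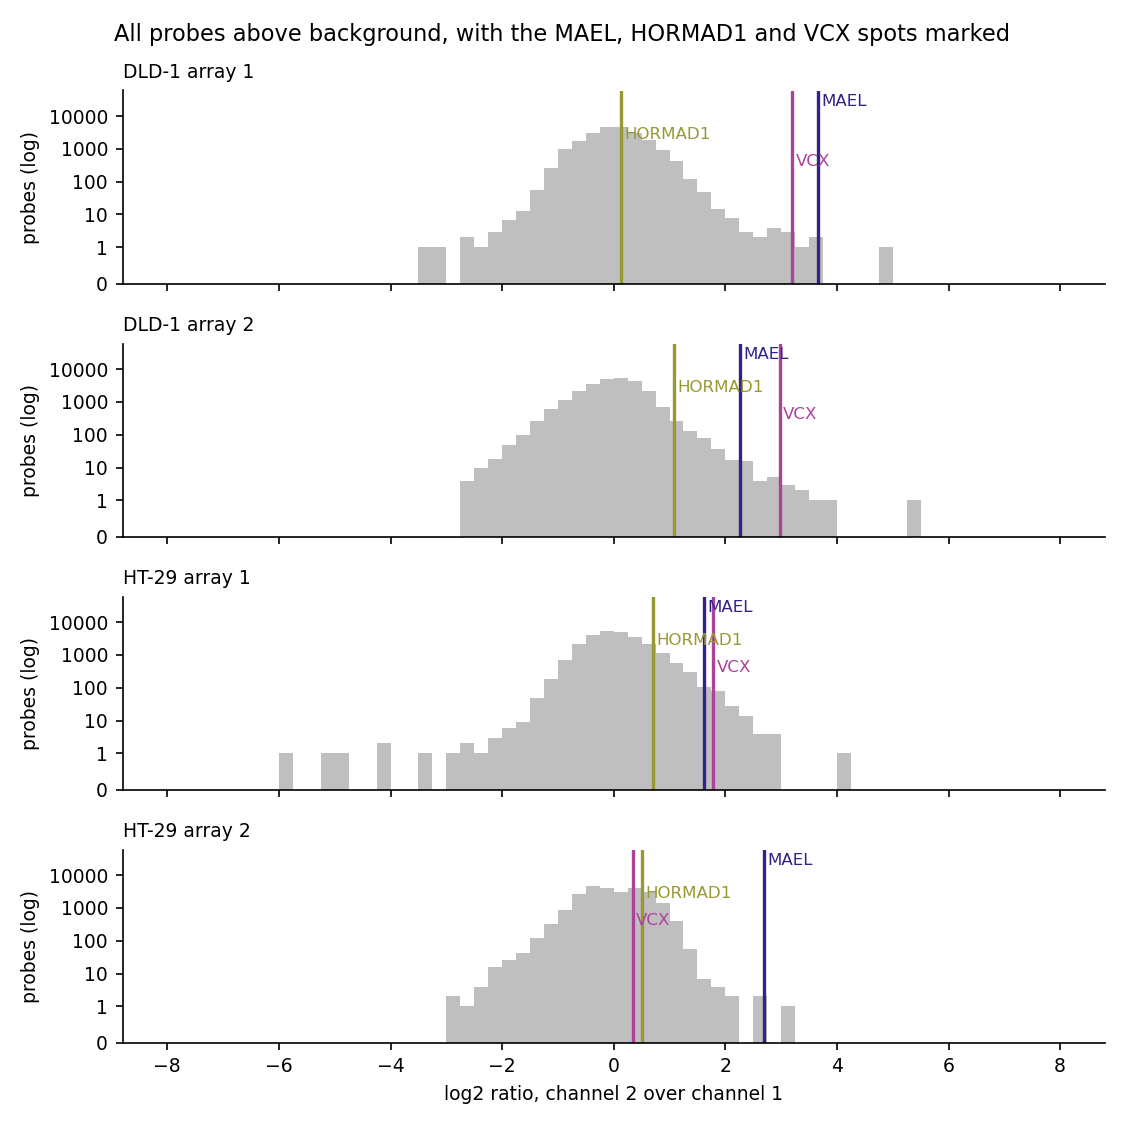
Number of probes above background (logarithmic axis) by log2 ratio of channel 2 over channel 1 on each array, with lines at MAEL, HORMAD1 and VCX. MAEL and VCX lie in the right tail on both DLD-1 arrays and on HT-29 array 1, and on HT-29 array 2 only MAEL does.

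Setting the median of each printed block to 0 turned the sign of 1 HORMAD1 ratio and took away that of VCX on HT-29 array 2. The median ratio of the block that holds HORMAD1 was 0.51, −0.41, 0.42 and 0.38 on the 4 arrays in the order above. With block medians set to 0 its ratios became −0.42 and 1.47 in DLD-1 and 0.34 and 0.12 in HT-29, so that channel 2 was the brighter one on 3 of 4 arrays. MAEL kept 3.47, 2.55, 1.47 and 2.46 on the same arrays. VCX had 3.16, 3.20 and 1.63 on the first 3 of them, and on the last it lay at the median of its block. The spots next to MAEL had median ratios between −0.48 and 0.35 and none above 1.06, and those next to VCX had medians between −0.17 and 0.11 and none above 1.02. Within its own block of 523 or 546 such probes MAEL ranked 8 on HT-29 array 1 and 1 on DLD-1 array 2, the arrays with both channels above background. The spots next to HORMAD1 had median ratios of 0.53 and −0.43 in DLD-1 and 0.62 and 0.26 in HT-29. On DLD-1 array 1 and both HT-29 arrays a neighbour exceeded HORMAD1, with the largest at 1.01, 0.97 and 0.64.

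The authors' deposited log2 ratios, turned here to channel 2 over channel 1, hold 2 values each for MAEL and HORMAD1. In the authors' deposited files MAEL has 2.66 (DLD-1 array 2) and 2.67 (HT-29 array 1), with the other spots marked as not valid. HORMAD1 has deposited ratios of 0.24 (DLD-1 array 1) and 0.64 (HT-29 array 2). The deposited VCX ratios were 3.47, 3.25, 1.96 and 0.47 in the array order above. Only VCX thus has a deposited ratio on all 4 arrays.

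The genes most like each of the 3 were taken by the Euclidean distance between the 4 array ratios of channel 2 over channel 1, among 9075 genes. MAEL was nearest to XAGE1B (distance 1.85), a cancer-testis antigen that the platform lists as XAGE1D, then UCHL1 (1.98), a ubiquitin hydrolase of neurons and germ cells, VCX (2.52), MYL2 (2.57) and PAGE5 (2.59). VCX was nearest to XAGE1B (1.28) and UCHL1 (1.54), followed by MYL2 (2.13), ADRB3 (2.23) and DKK1 (2.42). XAGE1B had ratios of 2.61 and 2.43 in DLD-1 and 2.12 and 1.27 in HT-29, and UCHL1 had 3.39, 1.63, 1.30 and 0.87 on the same arrays. HORMAD1 lay closer to its nearest genes, in a dense part of the distribution. Those were TMSB4Y, GPC6 (0.45), a glypican, ANKFY1 (0.53), the interferon-induced IFIT1 (0.61) and PTCD1 (0.61).

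Further genes of the germ-cell and silencer lists, without MAEL, HORMAD1 and VCX, were tested over both lines. The limma test on the 2 line means, adjusted over 9075 genes by the Benjamini-Hochberg method, called 0.187% of genes higher and 0.0441% lower under the working reading, and 0.628% and 0.022% in the labels' order. Of 86 such genes that could be tested, limma called 0 in either direction under both readings. With shares this small over all genes, 0 calls among 86 say little about these lists. At an unadjusted limma p under 0.05 there were 3 higher and 3 lower under the working reading, and 5 and 2 in the labels' order, where 291 and 162 of all genes were so in the first and 832 and 168 in the second.

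In the piRNA pathway 16 of 36 listed genes had a named probe and 10 besides MAEL were tested, with a median log2 ratio of 0.09 beside 0.01 over all genes. TDRD1, a Tudor protein that scaffolds PIWI proteins, had ratios of channel 2 over channel 1 of 0.96 and −0.63 in DLD-1 and 1.80 and 0.00 in HT-29. Its mean was 0.53 under the working reading (limma adjusted p = 0.687) and 0.85 in the labels' order (adjusted p = 0.0541). HENMT1, which methylates piRNA ends, had a mean of −0.38 under the working reading. PARN, an RNA-trimming nuclease, had −0.34, and MYBL1, a transcription factor of piRNA precursors, 0.28. None of them passed. By the labels' order HENMT1 had 0.11, PARN −0.11 and MYBL1 −0.24. PIWIL2, a PIWI protein itself, was chosen after its values were seen and had a mean of 0.27, or −0.15 in the labels' order.

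Both readings take channel 2 as treated on array 1 of each line, where the labels put treated RNA in Cy5. On these 2 arrays limma called 2.37% of 9802 genes higher and 0.275% lower, and 2 of 92 tested list genes higher. They were TDRD1 (mean log2 ratio 1.38, SE 0.244, adjusted p = 0.0191) and UTF1 (mean 1.03, adjusted p = 0.0330), a chromatin protein of pluripotent and early germ cells, each higher on 2 of 2 arrays. That share is close to the background, and a dye effect common to these arrays cannot be told apart from treatment there.

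Among genes of the meiotic chromosome axis, synapsis and recombination, 23 of 48 had a named probe and 14 besides HORMAD1 were tested, with a median of −0.04. MND1, a partner of the meiotic recombinases, had a mean of −0.55 under the working reading. TOP6BL, which works with SPO11 in making meiotic DNA breaks, had −0.45, and SPATA22, a single-strand DNA binding factor, −0.30. None passed. With the labels' order MND1 had 0.09, TOP6BL −0.26 and SPATA22 0.46. The other HORMA domain proteins and their remodellers, 6 tested, had a median of 0.07. ATG101 of autophagy had a mean of 0.62, the adaptor MAD2L1BP 0.38 and the checkpoint protein MAD2L1 −0.29, and none passed. Their means in the labels' order were 0.31 for ATG101, −0.0015 for MAD2L1BP and −0.19 for MAD2L1. TRIP13, the ATPase that removes HORMAD1 from chromosomes, was chosen after its values were seen. Its channel 2 over channel 1 ratios were 0.25 and −1.34 in DLD-1, of opposite sign, and 0.64 and 0.41 in HT-29. Its line means under the working reading were −0.54 in DLD-1 and 0.52 in HT-29. The mean over both lines was −0.01 under that reading and 0.45 in the labels' order.

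Proteins of spermatids and sperm, 17 tested of 50 listed, had a median of 0.02 under the working reading. PRM1 (a protamine) was at 0.37, LDHC (the testis lactate dehydrogenase) at 0.35, SPAG8 at 0.17 and HSPA2 at −0.17. By the labels' order PRM1 was at 0.39, LDHC at 0.47, SPAG8 at −0.09 and HSPA2 at 0.34. The remaining germ-cell and cancer-testis genes outside the MAGE, GAGE, PAGE and XAGE families, 22 tested of 64 listed, had a median of 0.06. PBK, a mitotic kinase, was at −0.53, the kinetochore scaffold KNL1 at 0.45, UTF1 at 0.41 and LUZP4 at −0.31. With the labels' order PBK was at 0.22, KNL1 at 0.31, UTF1 at 0.62 and LUZP4 at −0.41. Of 24 silencers of germline genes 17 were tested, with a median of −0.03. DNMT1, the maintenance methyltransferase, was at −0.27, CBX3 at 0.26, the histone methyltransferase EHMT2 at −0.22 and RING1 at −0.22. These 4 genes had 0.09, 0.33, −0.08 and −0.01 in the labels' order. Over both lines with all 4 arrays, no list gene named here passed the limma test. In the labels' order the medians were 0.04 for the piRNA list, −0.03 for the meiotic list, 0.21 for the HORMA list, 0.07 for sperm proteins, −0.13 for the other germ-cell genes and 0.07 for the silencers, beside 0.05 over all genes, so the medians of the other germ-cell genes and of the silencers change sign with the reading.

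**Figure D4:**
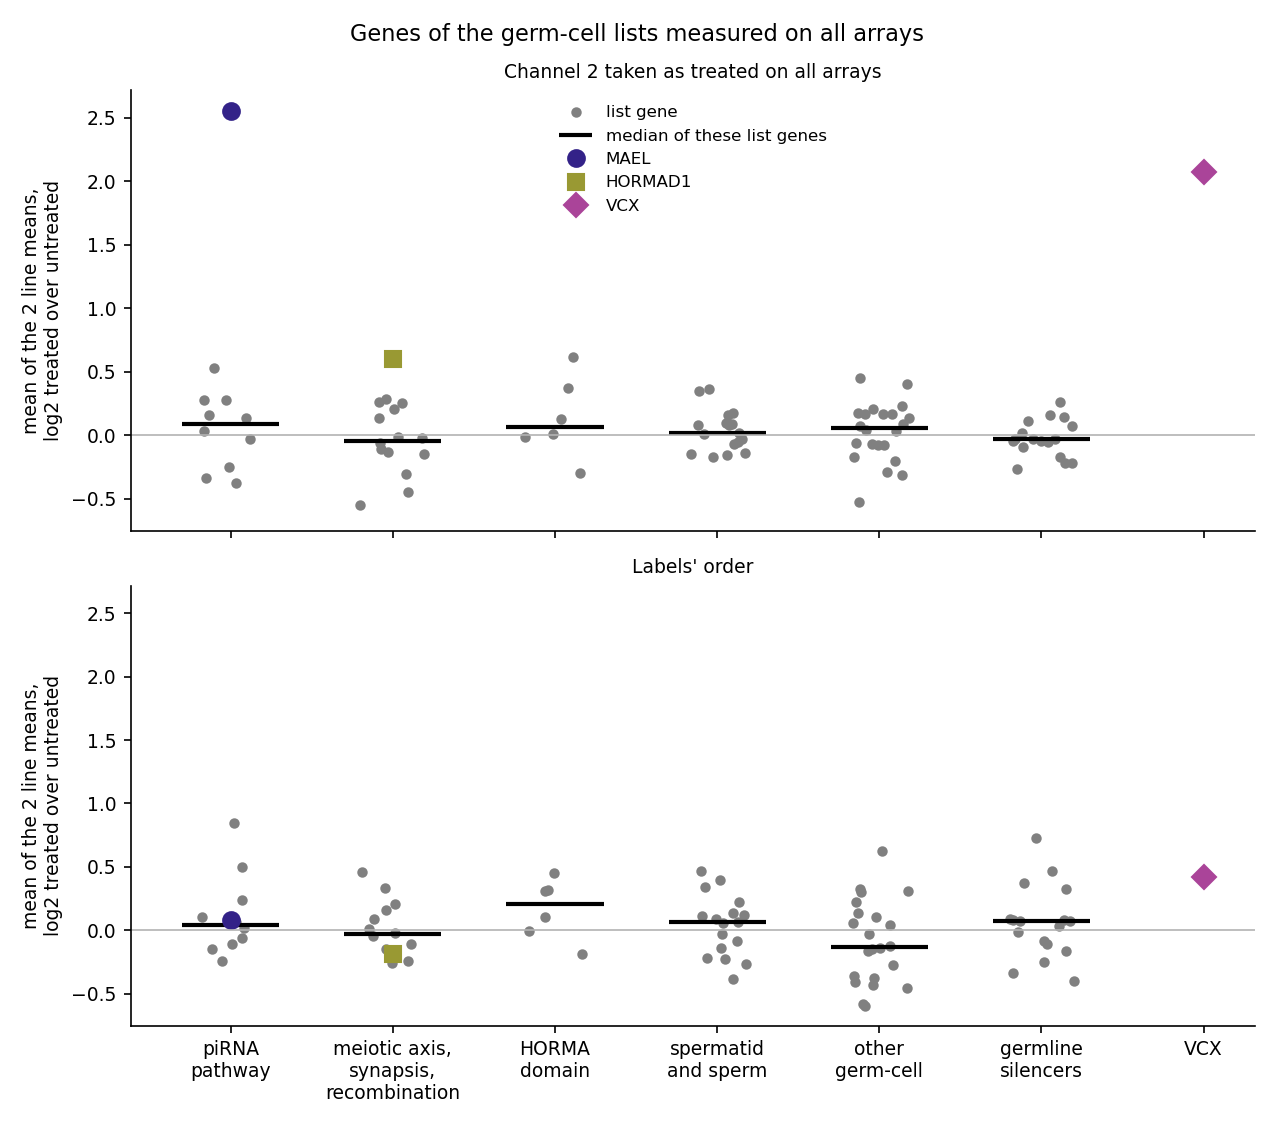
Mean log2 ratio of treated over untreated RNA over the 2 line means for each tested gene of 6 lists (grey points, black bar at their median), with MAEL and HORMAD1 on their own lists and VCX at the right, under the working reading (top) and in the labels' order (bottom). The other list genes lie between −0.55 and 0.62 in the upper panel; MAEL (2.56) and VCX (2.08) stand above them there and not in the lower one.

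Genes beside MAEL, HORMAD1 and VCX on the chromosome were the 3 nearest tested protein-coding genes on either side. The 18 means lay between −0.38 for UCK2 and 0.31 for CD247, both near MAEL, and none passed limma under the working reading. Next to HORMAD1, CTSS had a mean of −0.20 and the histone methyltransferase SETDB1 0.02. Next to VCX, the steroid sulfatase STS had 0.02 and PNPLA4 −0.15. In the labels' order the 18 means lay between −0.55 for STS and 0.58 for UCK2. CD247 had 0.50 there, CTSS −0.16, SETDB1 0.04 and PNPLA4 0.36.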

How the data were processed

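Per the labels, total RNA was extracted with TriZol, amplified to amino allyl aRNA and coupled to Cy3 or Cy5. The deposited scanner files give, per channel, the linear intensity of 30336 spots with a local background and its SD. A log2 ratio made by the authors (channel 1 over 2, background subtracted, median 0 over valid spots) stands beside them, and the deposited series table repeats it with the opposite sign. The sources used here name no scanner or software.

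Intensities were corrected with normexp (offset 50) and loess in R 4.3.3 with limma 3.58.1, leaving out control spots and 49 probes marked bad. Levels across arrays used limma's Aquantile step. A probe was kept if it had a channel above background on every array used, and the kept probes of a gene were averaged. A gene was tested if it had a kept probe. The 2 arrays of a line were averaged, and limma tested the 2 line means against 0, two-sided, at an adjusted p of 0.05. The p-values rest on 2 lines and on the variance limma shares between genes. With all 4 arrays the SE was 0.216 for every gene under the working reading and 0.238 in the labels' order. A gene's own spread between the lines thus had no weight in those p-values. Steps were tested on simulated data.

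Platform annotation gave 14200 probes 1 symbol, 447 several and 14993 none, and spot descriptions named 1321 more. Symbols were updated with RefSeq (GRCh38.p14). MAEL, HORMAD1 and VCX and the gene lists were chosen with earlier results of these data known. Named genes were called genes and the 4 with the largest means per list, the 5 nearest in pattern and 3 chromosome neighbours on each side. Alternatives covered channel reading, background, normalisation, filter, source of values and arrays left out.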

Additional observations from a re-analysis of the deposited data

Results flagged for a closer look

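Next to HORMAD1 on the chromosome, 2 genes had ratios of opposite sign in the lines on every array under the working reading. The difference between the lines was not tested for either. SETDB1, a histone H3 methyltransferase, had channel 2 over channel 1 ratios of −0.13 and −0.27 in DLD-1 and 0.24 and 0.25 in HT-29, and its HT-29 mean was 0.44 above its DLD-1 mean. ECM1, an extracellular matrix protein, had −0.52 and −0.15 in DLD-1 and 0.65 and 0.20 in HT-29, a difference of 0.76. Of the 18 chromosome neighbours 2 had such a pattern, and of all 9075 genes 7.91% had it in either direction and 4.66% with HT-29 as the positive line. In the labels' order the arrays of a line oppose each other for both genes. Groups of 2 arrays are too small for a search for outlying samples.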

How the results depend on the processing

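Of 54 recomputed line values of MAEL, HORMAD1 and VCX, 49 kept their sign, and the 5 that turned did so in the labels' channel order. Most of the 54 keep the working reading, so the 49 do not measure how far the sign depends on the channel reading. Values with an array left out are single ratios already given above as positive, so they could not turn. In that order MAEL had 0.70 in DLD-1 and −0.54 in HT-29, HORMAD1 −0.48 and 0.10, and VCX 0.11 in DLD-1. With block medians set to 0 as well, an alternative chosen after seeing the data, MAEL had 0.46 and −0.50, HORMAD1 −0.95 and 0.11, and VCX −0.015 in DLD-1. Under the working reading, subtracting the local background gave MAEL 3.45 and HORMAD1 1.27 in HT-29 and VCX 3.34 in DLD-1. The deposited ratios gave VCX 3.36 in DLD-1, and block medians set to 0 gave HORMAD1 0.23 in HT-29. Subtraction left MAEL with 1 DLD-1 array.

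The counts of genes higher and lower by limma, 17 and 4, became 57 and 2 in the labels' order, 2 and 0 in that order with block medians set to 0, 2 and 0 after subtraction, and 4 and 0 with block medians set to 0. They were 33 and 7 with no filter and 10 and 1 with both channels above background. Lower genes numbered 2 with median centring and 0 with the deposited ratios. Array 1 of each line alone gave 232 and 27 and array 2 alone 8 and 1, both chosen after seeing the data. Leaving out an array gave 5 to 257 higher and 0 to 98 lower, with 257 and 98 when DLD-1 array 2 was left out and 8 and 0 for DLD-1 array 1. Dropping HT-29 array 1 gave 10 and 5, dropping array 2 gave 5 and 0. Further list genes called higher numbered 1 with no filter (DAZL), 0 to 2 with an array left out (TDRD1 and UTF1 without DLD-1 array 2) and 2 on the Cy5 arrays alone. The list genes called lower were 0 throughout. The meiotic list's median was 0.02 with block medians set to 0.

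Probes 2-fold higher and lower on both arrays, 24 and 2 in DLD-1 and 26 and 3 in HT-29, became 78 and 3 and 69 and 1 in the labels' order, 55 and 14 and 56 and 31 after subtraction, 65 and 6 and 41 and 15 with no filter, and 9 and 0 and 15 and 2 with both channels above background. In DLD-1 the lower count was 1 without background correction and with the deposited ratios. In HT-29 the higher count was 16 with the deposited ratios, block medians set to 0 gave 11 and 5, and the labels' order with block medians set to 0 gave 1 lower. A single array gave 562 to 625 higher and 353 to 1066 lower in DLD-1, and 481 to 1100 and 267 to 537 in HT-29. The cause of these shifts was not tested; signal over background limits MAEL and HORMAD1 in channel 1.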

Other observations

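DAZL, an RNA-binding protein of germ cells on the lists above, was not above background in any of the 8 channels and was called higher only with no filter on dim probes, where 131 further list genes were tested in place of 86. Spots without a probe lay mostly below their local background. Their median net intensity ran from −202.7 to −37.7 over the 8 channels, whereas that of the negative controls ran from −10.1 to 6.77. The negative net intensity of MAEL in channel 1 of DLD-1 array 1, −88.0, was reached or exceeded by 111 of 192 spots without a probe.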
